A study of Cucumis melo with 4 samples.

Results

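Membrane transporter and channel genes made up 111 of the 3406 melon (Cucumis melo) genes that carried a Gene Ontology (GO) name and had a CmNOR binding peak assigned to them. They were taken by GO name alone: a gene entered if a name ended in "transporter activity" or held "channel activity" or "antiporter activity", and 9 of the 120 genes found in this way were dropped because another name mentioned auxin, abscisic acid, lipids, mitochondria, thylakoids or vesicles. No peak value was used to choose them. The 111 genes received 128 of the 5493 peaks, or 2.33%. CmNOR is a melon transcription factor of the NAC family, whose namesake NON-RIPENING acts in tomato fruit ripening. Its binding was mapped by DAP-seq, in which a tagged protein is mixed with purified genomic DNA and the DNA it holds is sequenced. The bait was MBP-His-CmNOR, CmNOR carrying a His tag and maltose-binding protein, in 2 libraries and the MBP-His tag alone in 2 negative-control libraries. All 4 used melon genomic DNA without cells, so chromatin and partner proteins were absent, and the labels give no cultivar, tissue or age.

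Transporters and channels are membrane proteins that move solutes across the plasma membrane and the membranes of the vacuole, plastid and other organelles. Channels let ions pass down their gradient through a pore, antiporters exchange one solute for another, and many other carriers couple uptake to the proton gradient that proton pumps set up. In a fleshy fruit such as melon, the pulp cells hold much of their sugar, organic acid and potassium in a large vacuole, so transport at the vacuole and plasma membrane is part of how fruit composition is set. These are statements about the families in plants in general. The peak list gives function only through GO names, so no gene below is given a protein name. Of the 111 genes, 100 had a name ending in "membrane". The others include MELO3C013149.2, named for the retromer, and MELO3C014681.2, named for protein import into the nucleus. Both entered through the name "obsolete protein transporter activity".

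The measurements are positions and widths. Each peak has a start, an end, the gene it was assigned to, the signed distance from its nearest edge to that gene's start, and a location class, in coordinates of a genome build that the available sources do not name. The list has no column per library and holds no count, enrichment or p-value per peak. Depth is therefore unknown, the CmNOR and tag libraries could not be compared, and no replicate spread stands behind any value. Intervals below are 95% exact Clopper-Pearson intervals and cover counting error only. Assignment of a peak to a gene rests on position and does not show that the gene responds to CmNOR.

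As a whole, transporter and channel genes had peaks close to their starts about as often as other annotated genes. A peak centred in the 2 kb before the gene start was found at 22 of the 111 genes, 19.8% (12.9 to 28.5), against 605 of all 3406 GO-named genes, 17.8%. A peak of the authors' promoter class, which takes in 3 kb on both sides of the start, was found at 59, 53.2% (43.5 to 62.7), against 49.0% of GO-named genes. Both background shares lie inside the members' intervals, so neither count sets these genes apart. A further 166 genes had a GO name with the word transport but no transporter, channel or antiporter activity. Of these, 24 had a peak in the 2 kb before the start (14.5%, 9.49 to 20.7) and 89 had one in the promoter class (53.6%, 45.7 to 61.4).

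**Figure D1:**
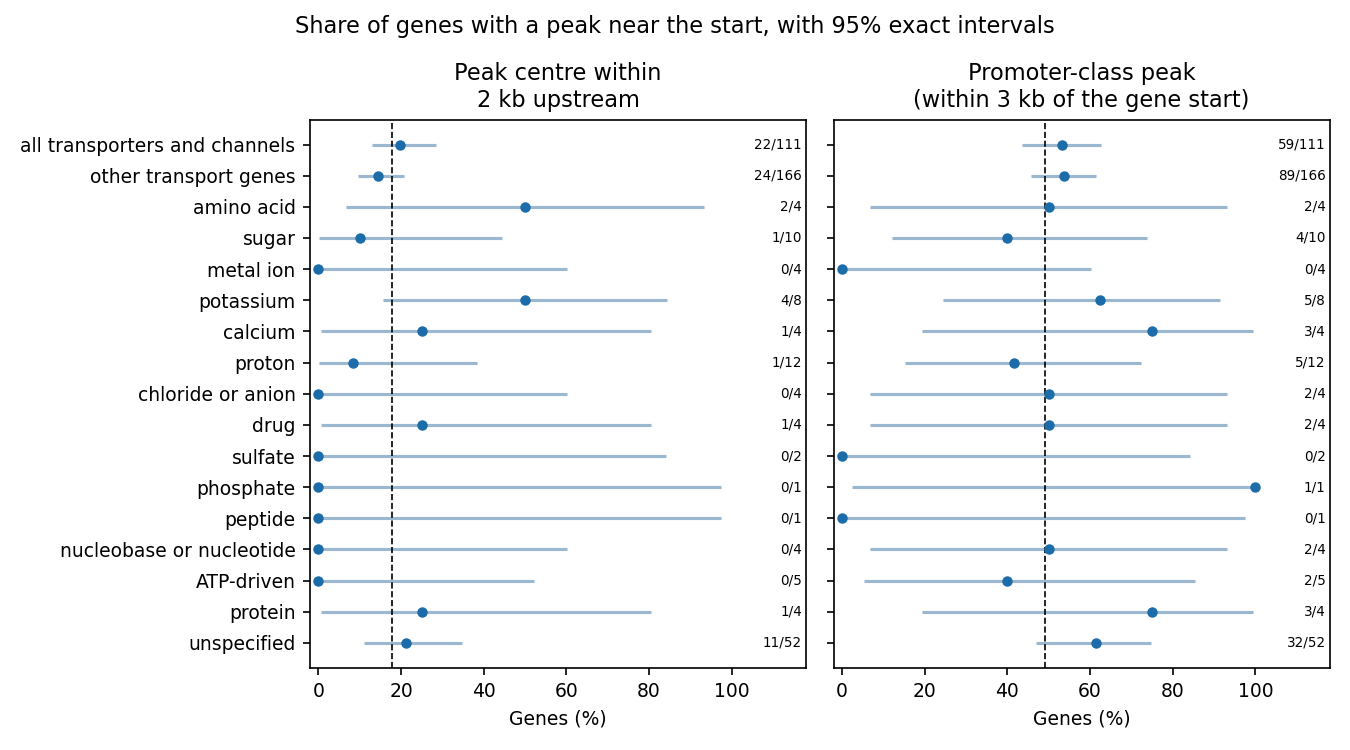
Share of genes (%, horizontal axis) with a peak centred in the 2 kb before the gene start (left) and with a promoter-class peak (right), for all transporter and channel genes, the other transport genes and each substrate group. Points are shares, bars are 95% exact intervals, dashed lines are the shares of all GO-named genes (17.8% and 49.0%) and fractions give the genes counted. Apart from the whole set, the other transport genes and the genes with no substrate named, the groups have at most 12 genes and wide intervals.

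By substrate, the groups of most interest were small: 4 genes for amino acids, 10 for sugars, 4 for metal ions and 0 for malate. The groups were set by keywords in the GO names, and 8 genes fell into 2 groups. Potassium gave 8 genes, proton 12, calcium 4, chloride or other anions 4, drugs 4, nucleobases or nucleotides 4, protein 4, sulfate 2, phosphate 1 and peptides 1, while 5 carried a name for ATP-driven transport. The largest group, 52 genes, matched no substrate keyword, and 46 of those had only general names such as "transporter activity". For those 46 genes the transported molecule is unknown here. A keyword match is not always a transported substrate: MELO3C023103.2 entered the nucleotide group through "nucleotide binding".

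Amino acid transporters move amino acids between phloem, cytosol and vacuole, and 2 of the 4 genes had their peak close upstream. MELO3C012281.2, on the minus strand of chromosome 10 at 1509630 to 1512784, had a peak at 1513332 to 1514387 whose near edge lay 548 bp upstream of the start. That peak was 1056 bp wide, the second widest of the 128. The peak of MELO3C032588.2 on chromosome 7 lay 292 bp upstream at 22827205 to 22827736, next to a gene model of only 334 bp. MELO3C013498.2 on chromosome 11, also named for the vacuolar membrane, had its peak 3909 bp upstream in the distal intergenic class. MELO3C003337.2 on chromosome 4 had its peak beyond the 3' end, 4017 bp from the start. The share of 2 in 4 has an interval of 6.76 to 93.2%, which includes the 17.8% of all GO-named genes.

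Sugar transport genes had 1 peak close upstream among 10 genes. It belonged to MELO3C006544.2 on chromosome 6, with a peak of 307 bp at 4039409 to 4039715, 853 bp before the gene at 4040568 to 4046565. The 10 include 8 genes named for carbohydrate transport, 1 nucleotide-sugar transporter and MELO3C013751.2, which matched through "carbohydrate homeostasis" but is annotated as a calcium channel. Without it the counts were 1 of 9 for the 2 kb window and 3 of 9 for the promoter class, an alternative chosen after its names were seen. With it they were 1 of 10 (0.253 to 44.5%) and 4 of 10 (12.2 to 73.8%), and these intervals include the 17.8% and 49.0% of all GO-named genes.

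The peak of MELO3C013751.2, 1965 bp upstream, is given with the calcium genes. Of the 8 remaining peaks, those of 3 genes lay inside the gene, 3 past its end and 2 over 10 kb upstream. The nucleotide-sugar transporter gene MELO3C019980.2, of the kind that brings activated sugars into Golgi or endoplasmic reticulum, had a peak 1987 bp inside the gene. MELO3C010257.2 on chromosome 2 had one 1917 bp inside, and MELO3C021377.2 on chromosome 11 had one of 620 bp in its intron 2 of 19, 3254 bp from the start. The peak of MELO3C006541.2, a neighbour of MELO3C006544.2, fell 3901 bp from its start in an intron of another gene, MELO3C006540. The peak of MELO3C008581.2 lay past its end, 4715 bp from the start. The 2 genes named both for carbohydrate transport and for an oxidoreductase activity, MELO3C017655.2 and MELO3C017656.2 on chromosome 7, had peaks 26456 bp upstream and 22270 bp downstream of their starts. For MELO3C026992.2 on chromosome 2 the distance was 11725 bp upstream.

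Genes of the metal ion group had no peak near their starts. The keywords of this group did not take in potassium, calcium or sodium. Potassium and calcium genes are given as groups of their own below. None of the 4 had a peak in the promoter class or in the 2 kb window (0 of 4, interval up to 60.2%). The nearest was that of MELO3C019432.2 on chromosome 6, 3428 bp upstream at 10685940 to 10686421. MELO3C002711.2 on chromosome 12 had a peak of 646 bp in its intron 4 of 7, 3644 bp from the start. The magnesium transporter gene MELO3C033691.2 on chromosome 9 had its peak 38554 bp away, past the gene's end, and the molybdate transporter gene MELO3C033418.2 on chromosome 8 had one 10469 bp away on the same side. Molybdate, an oxyanion, came into this group through the keyword for molybdenum. With 4 genes the group cannot be told from the 17.8% or the 49.0% of all GO-named genes.

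Malate, the acid that many fruits store in the vacuole, was not represented among the members, since no gene with a transporter activity name also carried a malate name. In the list 3 genes had "malate transport" as their single GO name, and they are given for comparison, having no activity name. MELO3C017298.2 on chromosome 2 had a peak of 1107 bp at 24549002 to 24550108, 170 bp upstream. MELO3C012230.2 on chromosome 10 had one of 509 bp 1723 bp upstream, and MELO3C015068.2 on chromosome 2 had one 4352 bp upstream. All 3 peaks lay upstream of the gene, where 50.5% of the peaks of all GO-named genes lay. Of the 3 genes, 2 had a peak centred in the 2 kb window. That share has an interval of 9.43 to 99.2%, which includes the 17.8% of all GO-named genes. Because the intervals of the amino acid, sugar and metal ion groups overlap, no order among the substrates can be drawn from these counts.

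**Figure D2:**
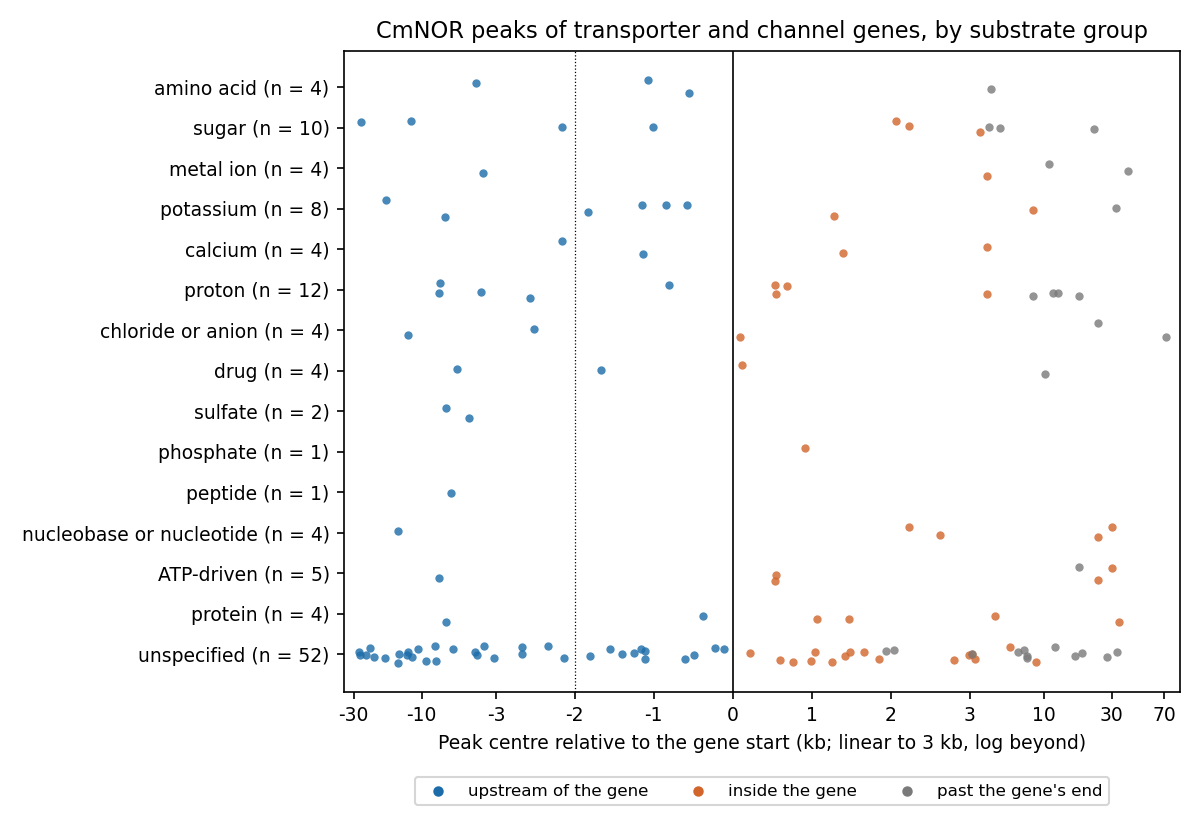
Centre of each of the 128 peaks relative to the start of its gene (kb, negative upstream, linear to 3 kb and logarithmic beyond), by substrate group; a peak of a gene in 2 groups is drawn in both, and height within a group is random. Blue points lie upstream of the gene, orange inside it and grey past its end; the dotted line marks 2 kb upstream, and the 4 metal ion peaks all lie beyond 3 kb.

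Among the remaining named substrates, potassium had the most genes with a peak centred in the 2 kb window, 4 of 8 (15.7 to 84.3%). This group was picked out after its values were seen. Potassium is the main inorganic cation of plant cells and drives their turgor. Of the peaks in that window 3 belonged to genes annotated as voltage-gated potassium channels. They were MELO3C003681.2 on chromosome 4, 404 bp upstream, MELO3C017101.2 on chromosome 2, 932 bp upstream, and MELO3C028489.2 on chr0, 1604 bp upstream. The fourth belonged to the potassium transporter gene MELO3C016040.2 on chromosome 1, 681 bp upstream at 32727097 to 32727432. The channel gene MELO3C019454.2 had a peak 1121 bp inside the gene and another 31936 bp away, and the channel gene MELO3C002718.2 had one 6710 bp upstream. The transporter genes MELO3C019015.2 and MELO3C034715.2 had peaks in intron 4 of 9 and 17694 bp upstream. All 9 potassium peaks were narrow to moderate, 333 to 465 bp. The interval of 15.7 to 84.3% includes the 17.8% of all GO-named genes.

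Proton pump and proton exchange genes numbered 12, and 1 had a peak close upstream (8.33%, 0.211 to 38.5, which includes the 17.8% of all GO-named genes). The vacuolar V-type ATPase acidifies the vacuole and so powers much of its uptake. The peaks of its 4 subunit genes were spread out: 2 subunit genes of the membrane-bound V0 domain had a peak just inside the start, MELO3C009887.2 on chromosome 4 at 187 bp (685 bp wide) and MELO3C011225.2 on chromosome 3 at 371 bp. The remaining V0 gene, MELO3C025730.2 on chromosome 11, had its peak 7354 bp upstream, and the V1 gene MELO3C025061.2 on chromosome 9 had one 17373 bp from the start, past its end. MELO3C011269.2, named for the F(o) part of an ATP synthase, had a peak 535 bp inside the gene. Of the 6 solute:proton antiporter genes, only MELO3C003361.2 on chromosome 4 had a peak centred in the 2 kb window. That peak lay 570 bp upstream, and the gene had a second peak 12265 bp downstream. The others had peaks 2336 bp (MELO3C015457.2), 3668 bp (MELO3C014905.2) and 7321 bp (MELO3C020099.2) upstream, or past the gene's end at 8130 bp (MELO3C027105.2) and 11353 bp (MELO3C026096.2). The last 2 are also named as sodium:proton antiporters.

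Calcium genes had peaks within 3 kb of the start in 3 of 4 cases, an interval of 19.4 to 99.4% that includes the 49.0% of all GO-named genes. Calcium channels and exchangers set the calcium signals of the cytosol. MELO3C024676.2 on chromosome 2, a calcium:sodium antiporter gene of 390 bp, had a peak 936 bp upstream. The calcium channel gene MELO3C013751.2 on chromosome 6, named for osmosensory signalling, had one 1965 bp upstream by its edge and 2159 bp by its centre, just outside the 2 kb window. MELO3C015192.2 on chromosome 2 had its peak 1154 bp inside the gene. In the calcium:proton antiporter gene MELO3C025789.2, counted also with the proton genes, the peak lay in intron 9 of 11.

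Anion, drug, sulfate and phosphate genes had 1 peak centre in the 2 kb window between them. It belonged to MELO3C025898.2 on chromosome 11, 1416 bp upstream. For drug genes the count was 1 of 4 (0.631 to 80.6%), and for chloride or anion genes 0 of 4 (up to 60.2%). For sulfate it was 0 of 2 (up to 84.2%) and for phosphate 0 of 1 (up to 97.5%). All of these intervals include the 17.8% of all GO-named genes. MELO3C025898.2 is 1 of 4 drug antiporter genes, a function that in plants moves secondary compounds and organic acids as well as foreign molecules. Another, MELO3C011114.2 on chromosome 3, had a peak of 321 bp covering its start, and MELO3C012290.2 and MELO3C034799.2 had peaks 5465 bp upstream and 9990 bp downstream. The chloride channel gene MELO3C032994.2 on chromosome 8 had a 517 bp peak over its start, and because the gene model is 257 bp long the peak spanned the whole model. The chloride channel gene MELO3C032949.2 had 2 distal peaks, and MELO3C016475.2 had one 12279 bp upstream. The anion channel gene MELO3C018824.2 on chromosome 1 had a wide peak, 759 bp, 2143 bp upstream. Both sulfate transporter genes, MELO3C018659.2 and MELO3C024226.2 on chromosome 1, had distal upstream peaks at 6374 and 4430 bp, and the phosphate transporter gene MELO3C022994.2 on chromosome 5 had one 747 bp inside the gene.

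Carriers of larger cargo gave 1 upstream case. MELO3C021082.2 on chromosome 1, a protein transmembrane transporter gene, had peaks 175 and 6453 bp upstream. In the 2 kb window the count was 1 of 4 for protein genes (0.631 to 80.6%). It was 0 of 4 for nucleobase or nucleotide genes (up to 60.2%) and 0 of 1 for peptides (up to 97.5%). Each interval includes the 17.8% of all GO-named genes. MELO3C014681.2 on chromosome 5, named for protein import into the nucleus, had its peak 840 bp inside the gene. MELO3C020610.2 on chromosome 12, named for protein transport across an outer membrane, had one 1276 bp inside. MELO3C013149.2, named for the retromer that returns cargo from endosomes, carried 2 peaks in introns 4 and 6 of 22 of a gene 67913 bp long. Another 2 intron peaks, in introns 13 and 14 of 39, belonged to MELO3C023103.2 on chromosome 8. This gene of 77839 bp, the longest among the members, is named for ATPase and transporter activity, and its names give no cargo. The ATP:ADP antiporter gene MELO3C012943.2 of the chloroplast membrane had a peak 14386 bp upstream, the oligopeptide transport gene MELO3C020715.2 one 5950 bp upstream and the nucleoside transporter gene MELO3C021694.2 one 2396 bp inside the gene.

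Genes without a named substrate had 11 of the 22 upstream cases among their 52 genes (21.2%, 11.1 to 34.7), and 32 had a promoter-class peak (61.5%, 47.0 to 74.7). The intervals include the 17.8% and 49.0% of all GO-named genes. Closest to a start was the 446 bp peak of MELO3C023842.2 on chromosome 10, at 6661542 to 6661987, which covered it. A peak of MELO3C023828.2, a cation transporter gene on the same chromosome, ended 1 bp inside the start, and that of MELO3C009937.2 on chromosome 4 lay 43 bp upstream. MELO3C006031.2 on chromosome 6, an ion channel gene with no ion named, had a peak of 664 bp at 272 bp upstream, and the other such gene, MELO3C014477.2 on chromosome 5, had one of 621 bp at 451 bp inside. MELO3C004486.2 followed at 317 bp upstream. MELO3C014230.2 on chromosome 8, which carries a name for ethylene signalling beside transporter activity, had its peak past the gene's end, 7332 bp from the start.

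By kind of protein, 10 of the 14 channel genes had a promoter-class peak (71.4%, 41.9 to 91.6), against 5 of the 13 antiporter genes (38.5%, 13.9 to 68.4). The intervals overlap and both include the 49.0% of GO-named genes. For the 2 kb window the counts were 4 of 14 and 3 of 13. This grouping was made after the values were seen.

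Peaks covering a gene start were few, 3 of 111 genes or 2.70% (0.561 to 7.70), against 4.37% of GO-named genes. They were those of MELO3C011114.2, MELO3C032994.2 and MELO3C023842.2, given above. In the whole set 65 peak centres lay upstream of the gene, 37 inside it and 26 past its end. The share inside was 28.9% (21.2 to 37.6), against 24.9% of the peaks of all GO-named genes. Members were somewhat longer than GO-named genes in general, with a median of 3788 against 3336 bp, and a part of gene length in this share was not tested. Gene models under 500 bp were as frequent among members (8 of 111, 7.21%) as among GO-named genes (7.31%).

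The location classes of the 128 peaks followed those of the 4107 peaks of GO-named genes closely. Distal intergenic peaks numbered 50, 39.1% (30.6 to 48.1), against 42.6%. Within 1 kb of the start there were 28 peaks, 21.9% (15.1 to 30.0), against 18.6%. A further 20 lay at 1 to 2 kb (15.6% against 13.1%) and 11 at 2 to 3 kb (8.59% against 11.0%). Introns held 10 peaks (7.81%, 3.81 to 13.9, against 5.28%) and exons 2 (1.56%, 0.190 to 5.53, against 4.92%). The exon peaks were in MELO3C019772.2, exon 5 of 6, and MELO3C006535.2, exon 6 of 6. The median distance from peak to start was 3656 bp (2396 to 5536) against 3797 bp.

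**Figure D3:**
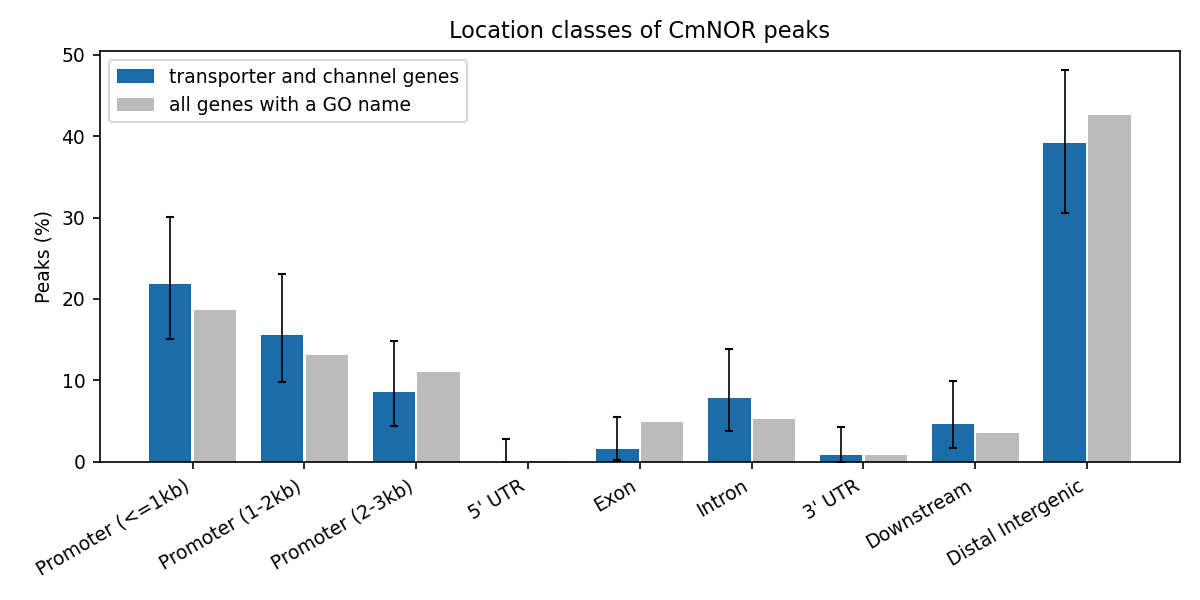
Share of peaks (%, vertical axis) in each of the authors' location classes for the 128 peaks of transporter and channel genes (blue, with 95% exact intervals) and the 4107 peaks of all GO-named genes (grey). Every grey bar lies within the blue bar's interval, including the exon class at 1.56% against 4.92%.

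Several peaks at 1 gene were seen for 14 members, 12.6% (7.07 to 20.3), against 14.8% of GO-named genes, and 3 or more for 3 members, 2.70% against 3.35%. All 3 have no named substrate, like 52 of the 111 members. MELO3C034180.2 on chromosome 10 had peaks 9074 and 22643 bp upstream and another past its end, 5894 bp from the start. MELO3C020716.2 on chromosome 12 had 3 distal upstream peaks at 7710, 14393 and 17486 bp. MELO3C014972.2 on chromosome 6 had 3 past its end, 11746 to 27609 bp from the start. None of these 9 peaks lay in the promoter class, which held 42.7% of the peaks of all GO-named genes. As the 9 peaks belong to 3 genes picked for their number of peaks, they are not independent of each other.

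The median member peak was 409.5 bp wide (388 to 438; range 299 to 1361 bp), against 424 bp for the peaks of GO-named genes. Width is the span the caller reported and is no measure of how strongly CmNOR bound. The 5 widest were spread over different places. The 1361 bp peak of MELO3C034180.2 lay past its end, the 1056 bp peak of MELO3C012281.2 close upstream and the 1016 bp peak of MELO3C020716.2 at 17486 bp upstream. The next were the 865 bp peak inside MELO3C012547.2 and the 777 bp peak found 26690 bp upstream of MELO3C003783.2. The last 3 of these genes have no named substrate, like 52 of the 111 members. The widest 10% of the 5493 peaks began at 589 bp, and 17 of the 128 member peaks (13.3%) reached it, against 10.0% of the peaks of GO-named genes. The quartiles of member widths, 345 and 520 bp, lay farther apart than the 357 and 502 bp of GO-named genes.

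**Figure D4:**
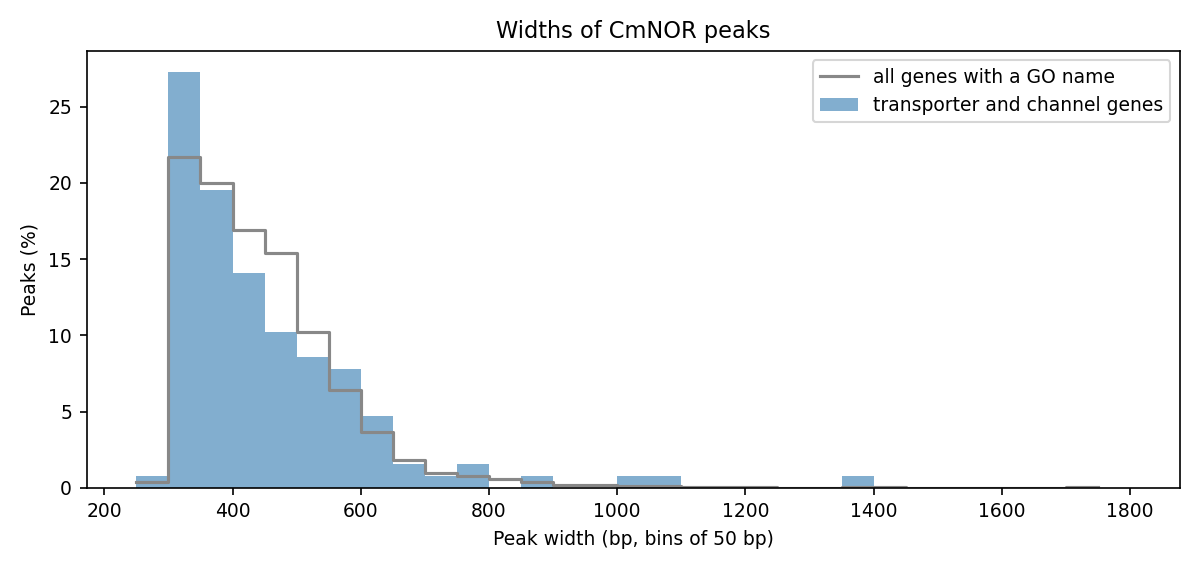
Percentage of peaks (vertical axis) by width (bp, bins of 50 bp) for transporter and channel genes (blue bars) and for all GO-named genes (grey line). The bin from 300 to 350 bp holds 27.3% of member peaks against 21.7%, and 3 member peaks exceed 1000 bp.

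The farthest peaks belonged to MELO3C032949.2, 72311 bp from its start, MELO3C033691.2 at 38554 bp and MELO3C013149.2 at 33343 bp, the last inside its own long gene. Of the 128 peaks 34 lay over 10 kb from the start (26.6%), against 24.3% for GO-named genes.

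Some members are neighbours in the genome and each had a peak of its own. There were 2 pairs within 20 kb of each other. Pairs were not counted among all GO-named genes, so whether members neighbour each other more often than other listed genes is unknown. MELO3C002731.2 and MELO3C002729.2 on chromosome 12, both with no named substrate, were 14282 bp apart on the same strand, with peaks 3403 bp upstream of the first, in a 3' UTR by the authors' class, and 1295 bp inside the second. The sugar transport genes MELO3C006541.2 and MELO3C006544.2 on chromosome 6 were 15232 bp apart on opposite strands. Within 100 kb there were 13 pairs of 22 genes, a limit set after the distances were seen. They include MELO3C023842.2 and MELO3C023843.2 on chromosome 10, both named for transmembrane transporter activity and 24294 bp apart, with a peak over the start of the first and one 1366 bp inside the second. Members occurred on all 12 numbered chromosomes and on chr0, from 2 genes on chr0 to 14 each on chromosomes 6 and 12. The list holds 154 peaks on chr0, 521 on chromosome 6 and 403 on chromosome 12. Member peaks made up 1.30%, 3.26% and 3.97% of these, against 2.33% of the whole list.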

How the data were processed

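The authors deposited 1 list of peaks with positions, widths, assigned genes, distances and GO names, per the file headers, with no column per library. MACS2 and deepTools were used, per the submitters' processing notes. Versions, thresholds, aligner, build and annotation are not stated in the available sources, nor is whether or how libraries were combined. How strictly peaks were called is therefore unknown. Widths, distances and the promoter class were recomputed from the coordinates and matched in 5493 of 5493 rows. Of the gene identifiers, 0 matched the RefSeq table, so genes go by identifier and no sequence is shown.

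Members, substrate keywords and windows were chosen with earlier results of these data known. Peak centres were placed relative to the strand-aware gene start, and the position rules were tested on simulated data. Shares per gene carry 95% exact Clopper-Pearson intervals, and medians order-statistic intervals. No test was run, as no value belongs to 1 library. The rule for named genes took upstream genes of the amino acid, sugar and metal ion groups (at most 8 each), peaks over a start, the 5 widest and 3 farthest peaks, genes with 3 or more peaks and neighbours within 20 kb. Other genes were named after their values were seen. Computation used Python 3.11.15 with scipy 1.17.1, numpy 2.4.6, matplotlib 3.10.9 and pandas 2.3.3.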

Additional observations from a re-analysis of the deposited data

How the results depend on the processing

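Of 52 recomputed values, 46 stayed within the interval of the value reported. This count says little for the amino acid and metal ion groups, whose intervals of 6.76 to 93.2% and up to 60.2% few values could leave. Shares in the 1 kb and 3 kb windows were set against the interval of the 2 kb window, which measures a different share. With a window of 1 kb the upstream share of transporter and channel genes was 8.11% (all GO-named genes 9.72%), below them rather than above as at 2 kb, and with 3 kb it was 26.1% (24.3%). Restricting the list to peaks of at least the median width, 421 bp, raised the median member width to 532 bp, as that choice must, and left 0% of 4 sugar genes with an upstream peak. The sugar share was also 0% of 10 genes at 1 kb. With the sugar keyword sought in activity names alone 1 gene was left, giving 0% upstream and 100% in the promoter class. The malate group had no members and gave no value. No paired analysis was possible because the list has no value per library. Unknown depth and groups of at most 12 genes with a named substrate limit every share.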

Other observations

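The 9 genes left out by name had 10 peaks, and 0 of the 9 had a peak centred in the 2 kb before the start. The interval reaches up to 33.6% and includes the 17.8% of all GO-named genes. MELO3C031708.2 on chromosome 6, named for auxin efflux, had its peak 9382 bp upstream. Of the lipid transporter genes, MELO3C016803.2 on chromosome 7, named for lipid transport from the endoplasmic reticulum to the chloroplast, had a peak 567 bp inside the gene, while MELO3C013507.2 on chromosome 11 had one 54052 bp from its start. The glycolipid transporter gene MELO3C012236.2 on chromosome 10 had one 2228 bp from its start, past the gene's end. The mitochondrial ATP synthase gene MELO3C034885.2 on chromosome 11 had one 11071 bp upstream.

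In the outer 20% of the 12 numbered chromosomes, measured up to the last listed peak, 28 of 38 member peaks belonged to the promoter class (73.7%, 56.9 to 86.6), against 30 of 88 in the inner part (34.1%, 24.3 to 45.0). The peaks of all GO-named genes gave 63.1% and 35.1%, so the same contrast was seen in the list at large. Gene density was not measured and its part was not tested.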
